A study of Mus musculus with 8 samples.

Results

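The genes described here are 44 genes of the primary cilium and of cystic disease, taken by name as a list of Bardet-Biedl, intraflagellar transport, kinesin, nephronophthisis, polycystic disease and RFX genes, not by a threshold on their values. Array probes carrying 1 of these names were found for 43 of them, and Mks1 was matched to no probe. The brightest probe of each of the 43 genes was kept, and all 43 were among the 19389 genes and unnamed transcripts tested. Mouse pancreatic epithelium was profiled at e15.5, dorsal and ventral buds together, on single-colour Agilent arrays. The mutant group held 4 arrays from Sox9fl/fl; Rosa26-CreER embryos, whose loxP-flanked Sox9 alleles are recombined after tamoxifen. The wild-type group held 4 arrays from Rosa26-CreER littermates, so both groups carried the recombinase. Dams of both groups received tamoxifen (6 mg per 40 g) at e12.5, 3 days before dissection, and the stock mixed FVB/N, C57Bl/6J and CD1 backgrounds. Each array carried RNA pooled from 4 embryos. Rosa26 is active in most cell types, so recombination was not limited to 1 cell type of the dissected tissue. The series asks which pathways depend on the transcription factor Sox9, which marks pancreatic progenitors and duct cells, during the secondary transition, when endocrine, acinar and duct cells form.

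The primary cilium is a single, non-beating projection built on a centriole. Kinesin-2 motors and the IFT-B complex carry cargo to its tip, IFT-A and dynein bring it back, the BBSome moves membrane proteins out of it, and a transition zone at its base acts as a gate. RFX transcription factors drive many ciliary genes, and loss of ciliary proteins causes cysts in kidney, liver and pancreas; in the pancreas, duct and endocrine cells carry primary cilia and acinar cells generally do not.

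Levels below are log2 values of the processed signal relative to the 75th percentile of the same array, and they are compared between pools for a single probe only. Fold changes are mutant minus wild type on this log2 scale. A gene was called when its adjusted p was under 0.05 (limma, Benjamini-Hochberg over all 19389 features). SE is the standard error. Sox9 lay at 1.77, 1.90, 1.87 and 1.77 in wild-type replicates 1 to 4 and at 0.59, 0.40, 0.52 and 0.47 in mutant replicates 1 to 4. Its log2 fold change was -1.33 (SE 0.07; adjusted p of 8.05e-04, limma), and the exact two-sided permutation p was 0.0286, the smallest that 4 against 4 pools allow. A second Sox9 probe (A_52_P577484) fell by 2.51, whereas the dimmer probe A_51_P451606 did not (0.63, adjusted p of 0.342).

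The array of mutant replicate 2 stood apart from the other 7. Its median processed signal was 756 scanner units against 219 to 272, and 85.9% of its probes were well above background against 69.0% to 73.4%. Across all probes, dim ones included, its median correlation with its own group was 0.852 against 0.992 to 0.994. Results are therefore given with all 8 arrays and with the 7 arrays that remain without it. All wild-type arrays were on slide 1 and all mutant arrays on slide 2, so slide and genotype cannot be told apart.

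With all 8 arrays, 3 of the 43 genes were called: Bbs2 and Kif3a were higher and Bbs9 was lower in Sox9 mutant epithelium. That is 6.98% of the genes, near the 5.58% called among all features, so the count says nothing particular about ciliary genes. Of all features, 2.13% were called higher and 3.45% lower. Log2 fold changes were positive in 23 genes, against 49.4% of all features, and negative in 20, with a median of 0.01, and their median size was 0.16 against 0.21 over all features. The unadjusted p was under 0.05 in 10 genes, against 25.5% of all features. The 4 mutant values lay wholly above or below the 4 wild-type values in 11 genes, 25.6%, against 25.8% of all features; 7 were higher and 4 lower, against 10.6% and 15.2%. Without mutant replicate 2, 9 genes were called, 7 higher and 2 lower, which is 20.9% against 17.4% of all features. The 7 higher genes stand against a background of 6.77% called higher, and the 2 lower genes against 10.6% called lower. In these 7 arrays the groups did not overlap in 14 genes with higher mutant values (32.6%) and 5 with lower ones, against 14% and 20.9% of all features. In tissue RNA, fewer cells of a type and less RNA per cell cannot be told apart.

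**Figure D1:**
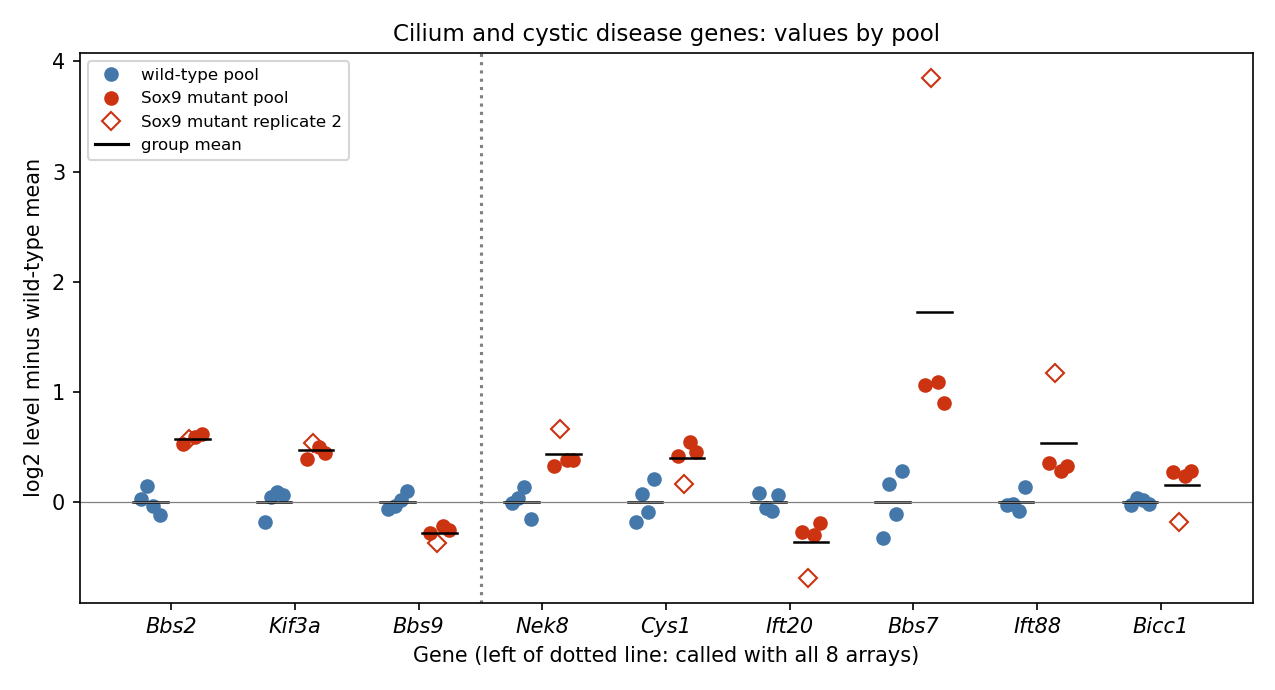
Log2 level of each pool minus the wild-type mean (y axis) for the 9 genes called with all 8 arrays (left of the dotted line) or only without mutant replicate 2 (right of it); circles are pools, the open diamond is mutant replicate 2, and bars are group means. Bbs2, Kif3a and Bbs9 show mutant replicate 2 beside the other mutant pools, whereas for Bbs7 it lies at -1.35 on the level scale and the other mutant pools between -4.31 and -4.12.

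Bbs2, a structural subunit of the BBSome, was the most stable change among the 43 genes across left-out arrays. Its probe (A_51_P345196; chromosome 8, 96966120 to 96966179, mouse assembly mm8) lay at -2.14, -2.02, -2.19 and -2.28 in wild-type pools and at -1.63, -1.59, -1.57 and -1.54 in mutant pools. Every mutant pool was above every wild-type pool, and mutant replicate 2 was within the range of its group. The log2 fold change was 0.57 (SE 0.07), a 1.49-fold rise (adjusted p of 0.00767, limma). The call held in each of the 8 fits lacking 1 array, and its log2 fold change was 0.58 without mutant replicate 2. The rise depended on how signals were corrected and scaled, however: the log2 fold change was 0.26 with normexp background correction (adjusted p of 0.992), 0.22 with quantile normalization (0.627) and 0.18 with arrays centred on their median (0.747). Median centring lowers the log2 fold change of every gene by the same amount, and the median over all features was then -0.40. With mutant replicate 2 also left out, that median was -0.06. With normexp and without that array, none of the 43 genes was called.

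Kif3a, a motor subunit of heterotrimeric kinesin-2 that is required to build cilia, was also higher. Its brightest probe (A_51_P473907; chromosome 11, 53438359 to 53441425) lay at 0.07, 0.29, 0.34 and 0.31 in wild-type pools and at 0.64, 0.78, 0.75 and 0.69 in mutant pools, without overlap. The log2 fold change was 0.47 (SE 0.08), a 1.38-fold rise (adjusted p of 0.0216, limma), and 0.44 without mutant replicate 2 (0.0134). A further Kif3a probe (A_51_P319551; 53446139 to 53446198) rose by 0.43 (adjusted p of 0.0320 over all probes). The partner motor Kif3b gave 0.06 (adjusted p of 0.769) and Kif17, a homodimeric kinesin-2, 0.93 (SE 1.16), which turned to -0.32 without mutant replicate 2; Kif17 was well above background on only 2 wild-type and 2 mutant arrays. Kif3a was called in 3 of the 8 fits lacking 1 array, and its adjusted p was 0.0897 with normexp, 0.902 with median centring and 0.0621 with no filter on dim probes.

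Bbs9, another BBSome subunit, moved the other way. Its probe (A_52_P674196; chromosome 9, 22638554 to 22638613) lay at 0.18, 0.21, 0.26 and 0.35 in wild-type pools and at -0.03, -0.12, 0.03 and -0.01 in mutant pools. The groups did not overlap, and the log2 fold change was -0.28 (SE 0.06), a 1.22-fold fall whose adjusted p of 0.0497 (limma) lay just inside the threshold. Leaving out any 1 array other than mutant replicate 2 ended the call; without mutant replicate 2 the log2 fold change was -0.26 (adjusted p of 0.0273). The call was also lost with normexp (adjusted p of 0.269), median centring (0.516), quantile normalization (0.0526), no filter on dim probes (0.135) and the mean of all probes (0.0672), with the fall kept in each.

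The promoter windows of Bbs2, Kif3a and Bbs9, and of Bbs7, the gene with the largest fold change in the 7 arrays, are shown because Sox9 and RFX factors bind DNA and these genes changed in opposite directions. RefSeq windows of assembly GRCm38.p6 were matched for 38 of the 44 genes. The 250 bases before the annotated start are printed on the gene's strand, with matches in capitals. The motifs searched on both strands were the X-box bound by RFX factors, its half-site GTTGCC, and the SOX-type motifs ACAAAG and ACAATG; an X-box can overlap GTTGCC.
Bbs2 chr8:94098510-94098759 (-): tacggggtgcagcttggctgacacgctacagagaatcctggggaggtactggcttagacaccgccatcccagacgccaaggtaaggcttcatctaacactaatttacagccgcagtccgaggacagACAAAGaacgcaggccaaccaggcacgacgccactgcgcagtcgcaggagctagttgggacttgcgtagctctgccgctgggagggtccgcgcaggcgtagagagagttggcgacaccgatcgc
Kif3a chr11:53567119-53567368 (+): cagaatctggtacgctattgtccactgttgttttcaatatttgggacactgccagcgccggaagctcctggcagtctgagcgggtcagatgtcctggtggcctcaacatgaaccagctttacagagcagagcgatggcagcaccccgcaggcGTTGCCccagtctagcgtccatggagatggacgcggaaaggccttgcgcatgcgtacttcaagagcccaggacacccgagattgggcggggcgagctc
Bbs9 chr9:22475465-22475714 (+): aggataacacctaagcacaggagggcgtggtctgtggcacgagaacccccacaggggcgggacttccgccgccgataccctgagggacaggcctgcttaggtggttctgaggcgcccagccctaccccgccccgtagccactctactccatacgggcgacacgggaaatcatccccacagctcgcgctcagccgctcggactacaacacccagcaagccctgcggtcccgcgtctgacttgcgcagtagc
Bbs7 chr3:36613390-36613639 (-): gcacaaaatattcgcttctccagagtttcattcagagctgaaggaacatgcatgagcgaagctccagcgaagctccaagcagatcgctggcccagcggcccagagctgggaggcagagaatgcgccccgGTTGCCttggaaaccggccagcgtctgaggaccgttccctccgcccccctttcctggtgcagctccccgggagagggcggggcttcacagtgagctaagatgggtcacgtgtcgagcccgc

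Kif3a held GTTGCC starting 98 bases before its start and Bbs7 held it 121 bases before, whereas Bbs2 held ACAAAG 124 bases before and no GTTGCC or X-box. The Bbs9 window held none of these motifs. Over whole windows of 300 bases (250 before and 50 after the start), GTTGCC occurred in 17 of the 38 matched genes, or 44.7%, against 14.1% of 27025 genes with a window, 14.6% of tested genes and 32.4% of the other ciliary genes listed further on. Windows with an X-box belonged to 5 of the 38 (Ahi1, Arl13b, Bbs1, Ift57 and Kif17), or 13.2%, against 6.64% of all genes, 8.26% of tested genes and 20.6% of the other ciliary genes. ACAAAG occurred in 4 of the 38, or 10.5%, against 21.0% of all genes, 17.3% of tested genes and 13.2% of the other ciliary genes. ACAATG occurred in 1, or 2.63%, against 14.3%, 9.67% and 4.41%. These are matches of letters, not measured binding, and called genes were found on both sides: Kif3a, Bbs7 and Ift88 (called higher with 8 or 7 arrays) held GTTGCC, whereas Bbs2, Cys1 and Nek8 (called higher) and Bbs9 and Ift20 (called lower) did not. Bicc1, called higher with 7 arrays, had no matched window.

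**Figure D2:**
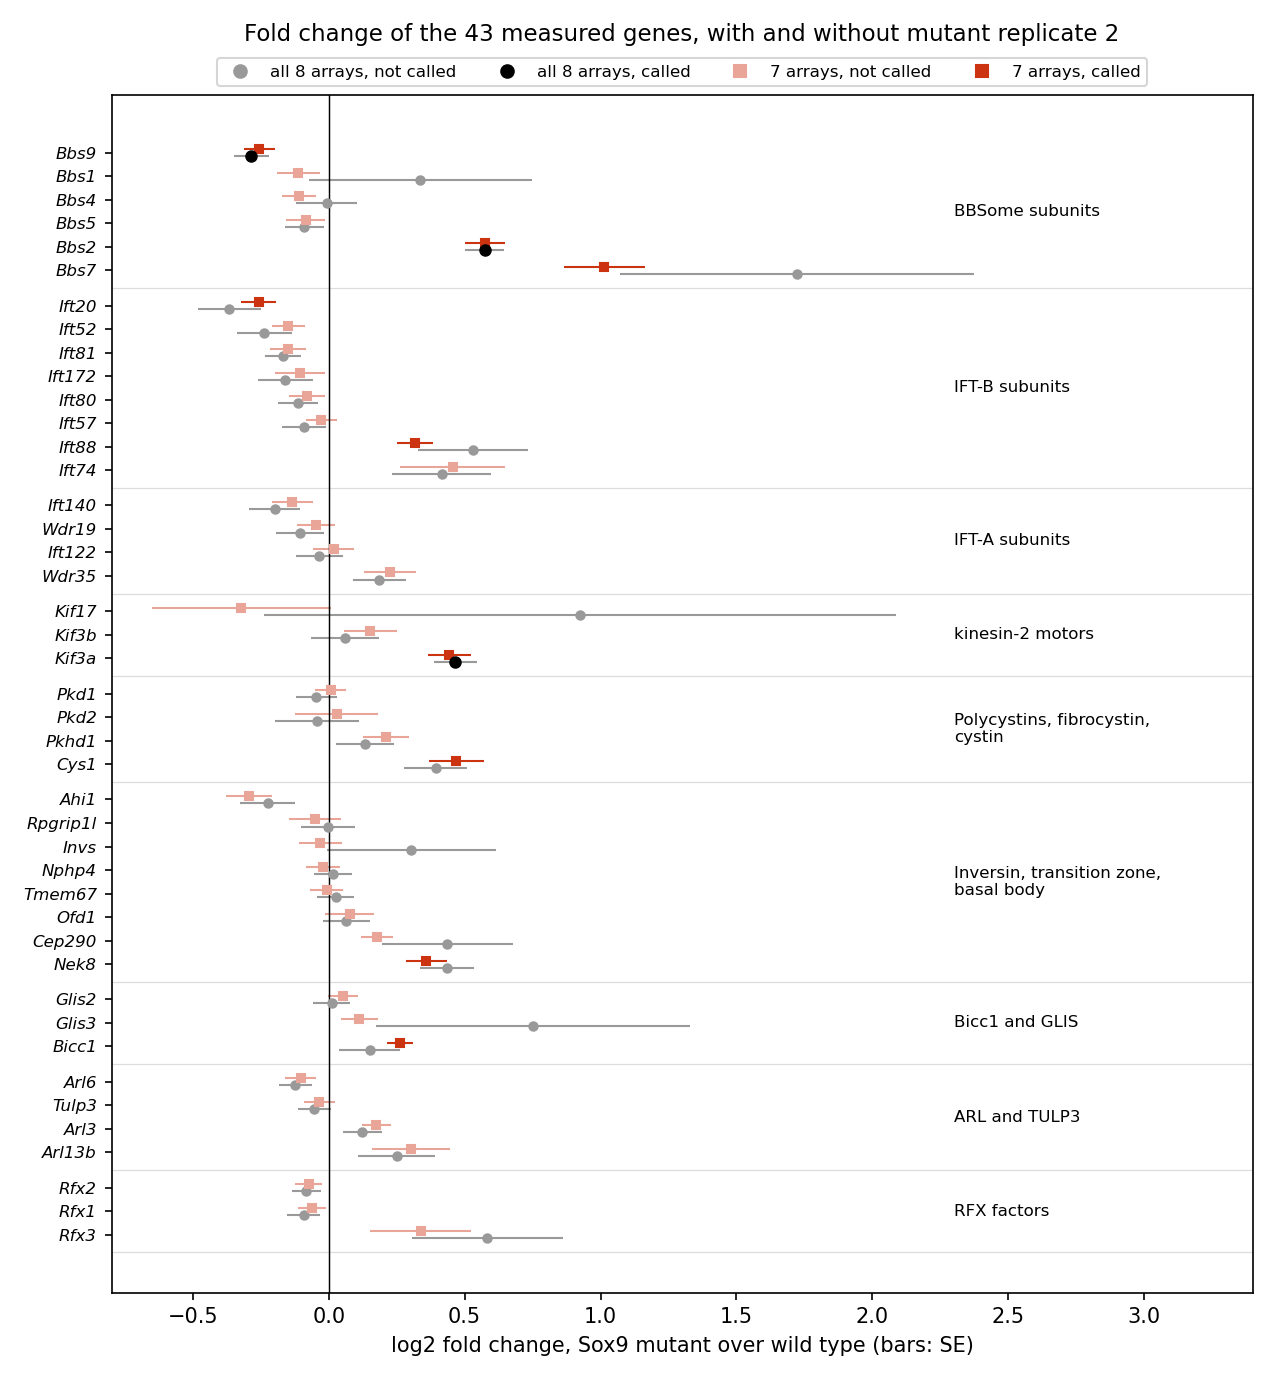
Log2 fold change of the 43 genes (x axis; bars are SE) by role, with all 8 arrays (circles; black when called) and without mutant replicate 2 (squares; red when called). Most values lie within 0.5 of 0 and move little when the array is left out, whereas Bbs7, Kif17, Glis3, Bbs1 and Invs lie farther to the right with it.

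Among the 6 BBSome subunits, the cargo adaptors of the cilium, 3 had positive and 3 negative log2 fold changes. Bbs7, which sits beside Bbs2 in the complex core, lay at -5.53, -5.04, -5.32 and -4.93 in wild-type pools and at -4.14, -1.35, -4.12 and -4.31 in mutant pools. All mutant values were above all wild-type values, but mutant replicate 2 was far above the rest. With all 8 arrays the log2 fold change was 1.72 (adjusted p of 0.157, limma). Without that array it was 1.01 (SE 0.15), a 2.02-fold rise (adjusted p of 0.00714). A further Bbs7 probe had log2 fold changes of 1.27 with 8 arrays (adjusted p of 0.205) and 0.71 with 7 (0.0320). The other subunits Bbs1 (0.34, and -0.11 with 7 arrays), Bbs4 (-0.01) and Bbs5 (-0.09) were not called in either fit.

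The 8 IFT-B genes encode the complex that carries cargo towards the ciliary tip, and none was called with all 8 arrays; 6 of their log2 fold changes were negative. Ift20, which also works at the Golgi in sorting membrane cargo to the cilium, had the smallest p of the class, with levels of 3.74, 3.60, 3.58 and 3.72 in wild-type pools and 3.39, 2.97, 3.36 and 3.47 in mutant pools. Every mutant pool lay below every wild-type pool, and replicate 2 was the lowest. Its log2 fold change was -0.37 with 8 arrays (adjusted p of 0.112) and -0.26 without replicate 2 (0.0365). A further Ift20 probe gave -0.41 (0.114) and -0.29 (0.0296), respectively.

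Ift88, the subunit disrupted in the polycystic Oak Ridge mouse, moved in the opposite direction. It lay at -1.16, -1.16, -1.22 and -1.0 in wild-type pools and at -0.78, 0.04, -0.85 and -0.81 in mutant pools, so that all mutant pools were higher and replicate 2 was the highest. Its log2 fold change was 0.53 with 8 arrays (adjusted p of 0.159) and 0.32 without replicate 2 (0.0206). Ift74, a coiled-coil core subunit, gave 0.41 with all arrays (0.203); its wild-type replicate 4 lay at -0.99 and the other wild-type pools between -0.38 and -0.16. The remaining IFT-B genes, none of them called, ranged from -0.24 for Ift52 and -0.17 for Ift81 through -0.16 for Ift172 and -0.11 for Ift80 to -0.09 for Ift57.

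The IFT-A genes encode the retrograde complex, and none of the 4 was called in either fit. Ift140 had the smallest p, with 0.83, 1.08, 1.05 and 0.91 in wild-type pools and 0.85, 0.57, 0.86 and 0.79 in mutant pools. The groups overlapped, and the log2 fold change was -0.20 (SE 0.09; adjusted p of 0.230, limma). Wdr19 (-0.11), Ift122 (-0.03) and Wdr35 (0.19) lay closer to 0.

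Of the 4 genes of polycystins, fibrocystin and cystin, proteins of the ciliary membrane whose loss causes polycystic disease, none was called with all 8 arrays. Cys1, which encodes cystin, had the smallest p, at -0.02, 0.23, 0.07 and 0.37 in wild-type pools and 0.58, 0.33, 0.71 and 0.62 in mutant pools. Only mutant replicate 2 fell within the wild-type range. The log2 fold change was 0.39 with 8 arrays (adjusted p of 0.0985) and 0.47 without replicate 2 (0.0228). On their brightest probes Pkd1 (-0.05), Pkd2 (-0.04) and Pkhd1 (0.13) had adjusted p values of 0.704, 0.871 and 0.452.

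Probes of Pkd2 disagreed on whether the gene changed, and probes of Pkhd1 disagreed in the size of the change. Pkd2 encodes polycystin-2, a cation channel of the cilium and endoplasmic reticulum, and its brightest probe (A_52_P234729; chromosome 5, 104745945 to 104746004) overlapped between the groups. Its other probe (A_51_P419613; 104743812 to 104743871) lay at 0.49, 0.79, 0.14 and 1.25 in wild-type pools and at -1.55, -0.58, -1.39 and -1.11 in mutant pools. On that probe every mutant pool was lower, with a log2 fold change of -1.83 (SE 0.29; adjusted p of 0.0211 over all probes, limma). Without mutant replicate 2 the same probe gave -2.02 (0.00463), while the brightest probe gave 0.03 (0.910). The labels and files do not say which transcripts each probe detects.

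Pkhd1 encodes fibrocystin, the protein lost in recessive polycystic kidney disease and a marker of developing ducts. Its further probes A_51_P322482 and A_52_P576007 had log2 fold changes of 1.58 (adjusted p of 0.114) and 1.13 (0.217) with all 8 arrays. Without replicate 2 they rose by 1.11 (0.0238) and 0.60 (0.0176), against 0.21 (0.130) for the brightest probe. Both further probes were dim. In wild-type pools they lay at -5.17 to -4.24 and at -3.75 to -3.26, and the brightest probe at -0.93 to -0.59. Over all genes, 38 further probes of 28 genes could be read. With all 8 arrays 20 of them had the sign of their gene's brightest probe and 3 were called, those of Kif3a, Nek8 and Pkd2, against 3.84% of all probes. With 7 arrays 25 had the same sign and 8 were called, 6 higher and 2 lower, against 16% of all probes.

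**Figure D3:**
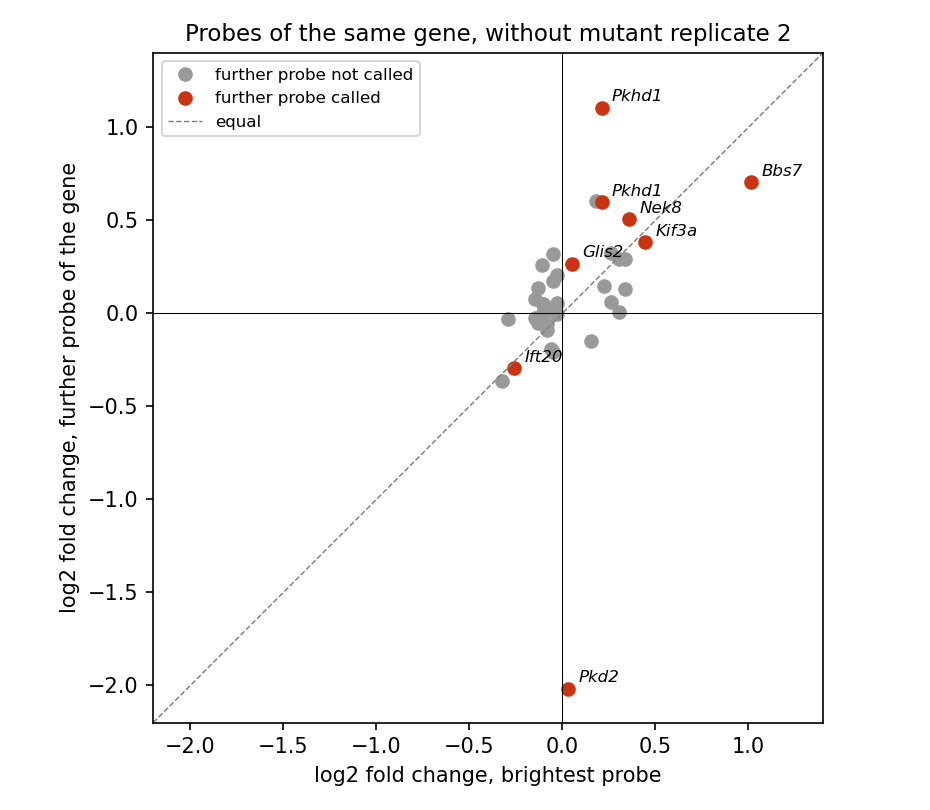
Log2 fold change of each further probe (y axis) against that of the brightest probe of the same gene (x axis), without mutant replicate 2; red marks further probes called and the dashed line marks equality. Most of the 38 probes lie near the line, whereas the further Pkd2 probe lies at -2.02 beside 0.03 for the brightest probe.

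Among 8 measured genes of the inversin compartment, transition zone and basal body, none was called with all 8 arrays. Nek8, a kinase of the inversin compartment mutated in the jck cystic mouse, had the smallest p, with -0.10, -0.06, 0.04 and -0.25 in wild-type pools and 0.23, 0.57, 0.28 and 0.28 in mutant pools. All mutant pools were higher and replicate 2 was the highest. The log2 fold change was 0.43 (SE 0.10; adjusted p of 0.0520, limma), just outside the threshold, and 0.36 without replicate 2 (0.0216). A further Nek8 probe (A_51_P195692; chromosome 11, 77982711 to 77982770) rose by 0.61 with all 8 arrays (0.0451 over all probes) and by 0.51 with 7 (0.0132).

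Most gate and basal body genes were closer to 0. Nphp4 (0.01), Rpgrip1l (0.00), Tmem67 (0.03) and Ofd1 (0.06) had adjusted p values between 0.647 and 0.980. Cep290, a transition zone scaffold, gave 0.44 (adjusted p of 0.291, limma), and 0.18 without mutant replicate 2 (0.0827), and Invs, which encodes inversin, went from 0.30 to -0.03. Ahi1, mutated in Joubert syndrome, had -0.23 with 8 arrays (0.212) and -0.29 with 7 (0.0531).

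Bicc1, an RNA-binding protein whose loss gives cystic kidneys, lay at 4.55, 4.62, 4.59 and 4.56 in wild-type pools and at 4.85, 4.40, 4.81 and 4.86 in mutant pools. Mutant replicate 2 was below all wild-type pools and the other mutant pools were above them. The log2 fold change was 0.15 with 8 arrays (adjusted p of 0.422) and 0.26 (SE 0.05) without replicate 2 (0.0140). Glis2 and Glis3, zinc-finger factors linked to nephronophthisis and to cystic kidney with neonatal diabetes, had 0.01 (0.928) and 0.75 (0.431) on their brightest probes; Glis3 was 0.11 with 7 arrays. A further Glis2 probe had 0.25 with 8 arrays (0.0680) and 0.27 with 7 (0.0243).

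The ARL GTPases and Tulp3, which deliver membrane and lipidated proteins to the cilium, held no call in either fit. Arl6, the GTPase that recruits the BBSome to membranes, had the smallest p, at -0.04, 0.04, 0.05 and 0.11 in wild-type pools and -0.11, -0.15, -0.01 and -0.07 in mutant pools. The groups overlapped and the log2 fold change was -0.12 (adjusted p of 0.244, limma). Arl3 (0.12), Arl13b (0.25) and Tulp3 (-0.05) had adjusted p values between 0.304 and 0.587.

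The RFX genes themselves were not called either. Rfx3, the factor needed for islet cell cilia in mice, lay at -4.93, -4.66, -4.91 and -4.78 in wild-type pools and at -4.08, -3.50, -4.45 and -4.92 in mutant pools. Mutant replicate 4 lay within the wild-type range and the other mutant pools above it. Its log2 fold change was 0.58 (SE 0.28; adjusted p of 0.234, limma), and 0.34 without replicate 2 (0.239). Rfx1 and Rfx2 had log2 fold changes of -0.09 and -0.08, with adjusted p values of 0.363 and 0.357.

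Mutant replicate 2 departed from the other mutant pools in a way that followed signal level. In the 6 genes with a wild-type mean below -3 (Bbs1, Bbs7, Kif17, Invs, Glis3 and Rfx3) it was above all other mutant pools in 6 of 6, by a median of 2.18 over their mean. In the 11 genes with a wild-type mean above 1 it was below all other mutant pools in 10 and above in 0, with a median offset of -0.22. The 26 genes between these levels had a median offset of -0.07. Without that array the log2 fold changes of Bbs1 (-0.11), Kif17 (-0.32) and Invs (-0.03) turned negative, those of Glis3 and Rfx3 were 0.11 and 0.34, and that of Bbs7 was 1.01. Why the array departs was not tested.

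**Figure D4:**
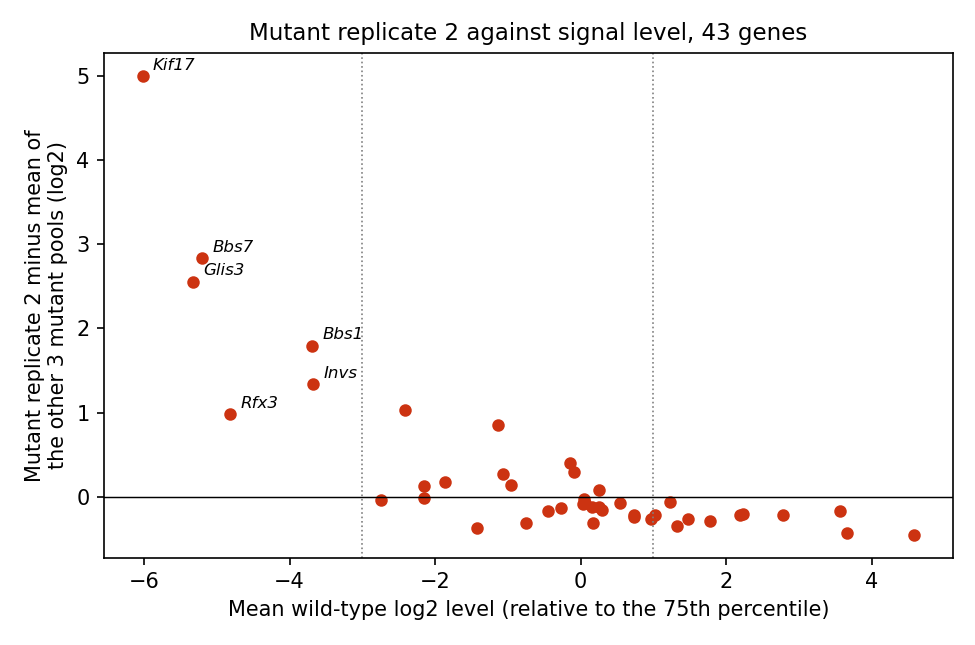
Level of mutant replicate 2 minus the mean of the other 3 mutant pools (y axis, log2) against the mean wild-type level (x axis, log2) of the 43 genes; dotted lines mark levels of -3 and 1. The offset is between 0.98 and 5.0 in the 6 dimmest genes and between -0.45 and -0.06 in the 11 brightest.

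Other genes of the same machinery, listed by function, were read in the same fit. Of 76 tested, 2 were called with all 8 arrays, both lower, which is 2.63% against 5.58% of all features; their log2 fold changes were positive in 26 and negative in 50, with a median of -0.06. B9d1, a transition zone subunit, lay at 1.77, 1.63, 1.85 and 1.92 in wild-type pools and at 1.21, 1.28, 1.33 and 1.30 in mutant pools, without overlap. It fell by 0.51 (SE 0.08; adjusted p of 0.0143, limma) and was called in 5 of the 8 fits lacking 1 array. Tctex1d2, a light chain of the retrograde dynein, fell by 0.34 (SE 0.08; 0.0499) and was called only in the fit without mutant replicate 2 among those 8.

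By list, 1 of 17 other intraflagellar transport genes and 1 of 16 other transition zone genes were called. None of 7 other Bardet-Biedl genes, 15 basal body and centriole genes, 12 membrane trafficking genes or 9 other cystic disease genes was called. The smallest p in these lists belonged to Bbip1, a small BBSome subunit (0.41, adjusted p of 0.0842, limma), Ccp110, a cap of the mother centriole (-0.20, 0.124), Inpp5e, the ciliary phosphoinositide phosphatase (0.18, 0.134), and Nek1, a kinase mutated in the kat cystic mouse (-0.24, 0.107). Umod was below the filter on dim probes. Without mutant replicate 2, 8 of the 76 were called, 2 higher and 6 lower, or 10.5% against 17.4% of all features. Kifap3, the accessory subunit of the kinesin-2 that Kif3a and Kif3b form, gave -0.23 with 8 arrays (0.0758) and -0.21 with 7 (0.0477), opposite in sign to that of Kif3a.

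Among the cell type markers read beside these genes, the summed levels of duct, endocrine, and neuron and Schwann markers were lower in mutant pools without overlap. Those of the other lists, multiciliated cells included, overlapped between the groups. All 8 markers of pancreatic epithelium were well above background on all 8 arrays, and their summed level, in multiples of the array's 75th percentile, was 340 to 368 in wild-type pools and 294 to 391 in mutant pools. Cpa1, Krt8 and Krt18, the brightest of them, make up most of this sum. Among the 8 markers Pdx1, a factor of pancreatic progenitors and beta cells, was called lower (-1.05, adjusted p of 0.00170, limma), and without mutant replicate 2 the keratins Krt8, Krt18 and Krt19 were called higher. The summed level of 7 duct markers was 68.9 to 80.6 in wild-type pools and 35.7 to 45.1 in mutant pools; Spp1, the brightest of them, makes up most of this sum. Sox9 itself and Spp1 were called lower and Onecut1 higher, and without mutant replicate 2 Cftr (1.46, adjusted p of 0.00268) and Krt19 (0.47, 0.00638) were called higher too. The summed level of 8 endocrine markers was 161 to 215 in wild-type pools and 129.6 to 159 in mutant pools other than replicate 2, which lay at 60.1. Ins2, Gcg and Ins1 make up most of this sum. Of the 8 markers, 4 were called lower, and 7 without mutant replicate 2. Gcg went the other way, with 0.22 on 8 arrays (adjusted p of 0.467, limma) and 0.40 on 7 (0.0580). The summed level of 7 neuron and Schwann markers was 4.84 to 6.82 in wild-type pools and 2.33 to 3.80 in mutant pools, with 2 called lower. No marker of these lists was at 0. Of 9 multiciliated cell markers, 5 could be tested, with a summed level of 1.17 to 1.5 in wild-type pools and 1.25 to 1.42 in mutant pools other than replicate 2, which lay at 2.60; Rsph4a was well above background on 0 arrays. None of the 5 was called with 8 arrays, and with 7 Foxj1 was called higher (0.71, adjusted p of 0.0214, limma) and Dnah9 lower (-0.94, 0.00614). The ranges of acinar, mesenchymal, endothelial, erythroid and myeloid and lymphoid markers overlapped between the groups, although Hba-x, an embryonic globin (1.42, adjusted p of 0.0487, limma), and the mesenchymal Barx1 (0.27, 0.0380) were called higher. All 8 mesenchymal markers, too, were well above background on all 8 arrays. Their summed level was 323 to 377 in wild-type pools and 265 to 339 in mutant pools, so mesenchymal RNA was present beside that of epithelium. The part of changed cell type shares in the values of Bbs2, Kif3a, Bbs9 and the other genes was not tested.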

How the data were processed

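RNA of 8 pools (4 embryos each; about 250 ng labelled with Cy3) was hybridised to 8 Agilent arrays of design 014868. Per the file headers, the deposited scanner files came from Feature Extraction 9.5.3.1 and hold a processed signal, an intensity in linear scanner units that the scanner software had background-subtracted and corrected for spatial trends, with no normalization between arrays. The series table deposited by the authors gives 40928 probes, likewise as linear intensity; it served only as an alternative. Per the submitters' processing notes limma was used; its version and settings are not given in the sources used here.

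Control and outlier spots were left out, spots of a probe were averaged as log2 values, and each array was set relative to its 75th percentile. Of 41174 probes, 29460 were well above background on at least 4 of 8 arrays; the brightest per gene was kept, and unnamed probes stayed as features. Names came from the files through RefSeq gene names (24375 probes by accession, 6301 by symbol, 2426 by synonym, 8072 with none). Coordinates of probes were taken from the files (mm8), and promoter windows are RefSeq's (GRCm38.p6). Limma 3.58.1 in R 4.3.3 (the data.table package, version 1.17.8) fitted genotype to all features (lmFit and eBayes, two-sided, Benjamini-Hochberg). Further probes were fitted with all 29460 probes. The fit was checked on simulated data drawn around the wild-type means and spread. No simulated array departed as mutant replicate 2 does, so the check does not cover that array. Precision is limited by the number of arrays, and p-values set the difference between groups against the spread of pools within them. All pools of a group shared a slide, so this spread holds no difference between slides.

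The genes, lists and motifs were chosen with earlier results of these data known, so no test of a list was made. Per-pool values are given for called genes, for the smallest p of each role and for genes called when 1 array was left out; other lists give up to 3 called genes or the smallest p. The array of mutant replicate 2 was singled out after its values were seen. Alternatives changed the background correction (normexp, offset 50), scaling, filter, probe rule, array weights, block, source of values and arrays included.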

Additional observations from a re-analysis of the deposited data

Results flagged for a closer look

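In 15 of 88 groups of 4 pools (44 wild type, 44 mutant; the 43 genes and Sox9), 1 pool lay farther from the others than Dixon's critical value allows, where chance gives about 1 in 20. Of these, 11 concerned mutant replicate 2, 1 another mutant pool and 3 a wild-type pool. Among dim genes, mutant replicate 2 was high for Bbs1 (-2.01; other mutant pools -3.88 to -3.72), Bbs7 (-1.35; -4.31 to -4.12), Invs (-2.37; -3.80 to -3.61), Glis3 (-2.67; -5.33 to -5.10) and Cep290 (-1.21; -2.30 to -2.16). It was also high for Ift88 (0.038; -0.85 to -0.78) and Nek8 (0.57; 0.23 to 0.28). It was low for Kif3b (-1.64; -1.28 to -1.26), Pkhd1 (-0.86; -0.56 to -0.53), Tulp3 (-0.046; 0.02 to 0.03) and Bicc1 (4.40; 4.81 to 4.86). Mutant replicate 1 was high for Ofd1 (1.43; 1.25 to 1.26). Wild-type replicate 4 was low for Kif3b (-1.69; -1.36 to -1.33), wild-type replicate 2 was low for Nphp4 (-1.07; -0.93 to -0.91) and wild-type replicate 1 was high for Ahi1 (-0.88; -1.14 to -1.11). Whether these pools differ for a technical reason was not tested.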

How the results depend on the processing

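Called genes among the 43 (3 with the reported settings) numbered 0 with normexp background correction, 0 with median centring, 1 with no filter on dim probes, 12 with array weights (9 higher, 3 lower) and 9 with the series table's values (7 higher, 2 lower). They numbered 2 with quantile normalization, 4 with probes well above background on all 8 arrays and 3 with the mean of all probes of a gene. Under that mean Bbs9 was no longer called, whereas Pkd2 was called lower (-0.93, adjusted p of 0.0295, limma). Leaving out 1 array gave 1 to 9; the 9 came without mutant replicate 2. In alternatives added after seeing the data, leaving out mutant replicate 2 as well gave 10 with median centring and 0 with normexp (7 at an unadjusted p under 0.05). At that unadjusted threshold limma gave 4 genes with normexp and 1 with median centring on 8 arrays. Of the other ciliary genes (2 called), 0, 0, 1, 11 and 7 were called with normexp, median centring, no filter, array weights and the series table, and 0 to 8 with 1 array left out. Of the further probes (3 called) these settings gave 0, 1, 1, 9 and 6, and 0 to 8. Of all features (1082 called) they gave 80, 45, 398, 4795 and 2181, the mean of probes gave 716, and leaving out 1 array gave 358 to 3364: 358, 399, 367 and 534 without wild-type replicates 1 to 4, and 429, 3364, 482 and 468 without mutant replicates 1 to 4. Sox9 kept its direction in every setting run and lost its call only with median centring (-1.73, adjusted p of 0.110). Median centring moved the median log2 fold change of all features from 0.00 to -0.40, a constant shift of every gene, so that 10 of the 43 genes were positive instead of 23; without mutant replicate 2 as well, that median was -0.06 and 18 were positive; removing the filter moved it to 0.16. The cause of the other changes was not tested. With the replicate number as a block, 0 of the 43 genes (8 at an unadjusted p under 0.05), 0 other ciliary genes, 0 further probes and 146 features were called, and Sox9 stayed called (adjusted p of 0.0361). Same-numbered pools correlated at 0.02, -0.02, 0.05 and 0.13 in their deviations from the group means, and differently numbered pools at -0.16 to 0.13. The mutant deviations include the departure of mutant replicate 2, so these correlations cannot decide whether the numbers pair the pools. Signal over background limits the dimmest genes, above all Kif17.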

Other observations

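The brightest probes of Kif3a, Ift20 and Nek8 lie on chromosome 11, which also holds Sox9, as does that of B9d1. Without mutant replicate 2, 3 of the 3 measured genes of the list on this chromosome were called, in a grouping noticed after the values were seen. The unmeasured Mks1 lies there too. Kif3a and Nek8 rose, whereas Ift20 and B9d1 fell. Among the other ciliary genes there, Tmem17, Tmem107 and Fbf1 were not called in that fit (adjusted p of 0.134, 0.0580 and 0.383, limma). Of all 1586 features with a probe there, 20% were called in that fit, against 17.1% of 17642 on other chromosomes; with all 8 arrays the shares were 6.12% and 5.52%.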
